A study of Mus musculus with 2 samples.

Results

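The 6 genes of the GATA transcription factors, Gata1 to Gata6, were followed through single-cell ATAC-Seq (scATAC-Seq) of mouse mammary gland organoids. This assay counts cuts made by a transposase in the open chromatin of single nuclei. All peaks that overlapped the body of one of these genes or lay within 50 kb of one of its transcription start sites (TSS) in GENCODE M21 were taken (98 of 223092 DOX peaks and 94 of 229685 EtOH peaks on assembled chromosomes). Overlapping peaks of both libraries were merged, which gave 114 of 275294 regions for the 6 genes. A region was numbered from the lowest coordinate within each gene (Gata4 region 7, for example). Many regions lay in or beside neighbouring genes, so that a region is named for the Gata gene near it and not for a gene it was shown to act on.

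The organoids came from C57BL/6J mice with the genotype shTRPS1.34 ki/+; CAG-rtTA3 tg/+. They carried a doxycycline-inducible shRNA against Trps1 and the transactivator rtTA3 under the CAG promoter, which is active in most cell types and not in the epithelium alone. Both groups carried both alleles. One was kept for 7 days with doxycycline at 0.1 µg/ml (DOX), which switches the shRNA on, and the other received the solvent ethanol (EtOH). Doxycycline itself and the shRNA cannot be told apart in this design. The design text names 4 mice, whereas the additional methods name a smaller number. The cells of different mice were combined ahead of nucleus isolation, and single mice cannot be traced. A legend of the study names wild-type mice for this assay, while the labels and methods name shTrps1 mice, which was followed. Under the legend, doxycycline would be the sole difference between the groups.

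GATA factors bind short DNA words with the core GATA through zinc fingers. GATA1 and GATA2 are best known from blood cell formation, where GATA1 drives erythroid, megakaryocyte and mast cell maturation and GATA2 maintains stem and progenitor cells. GATA3 is required for T helper cells and, in the mammary gland, for the luminal epithelium, while GATA4, GATA5 and GATA6 act in heart and endoderm. TRPS1, the target of the shRNA, has a GATA-type zinc finger and represses transcription. The comparison addressed how chromatin at the genes of this family differed between DOX and EtOH organoids, and in which nuclei it was open.

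The DOX library held 3071 nuclei with a median of 75296 counts per nucleus, and the EtOH library 3104 nuclei with 66789.5. The total was 224762118 counts in DOX and 211963715 in EtOH, after 7600 nuclei had been loaded for each with the aim of 5000. Each group had 1 library, so no difference was tested against replicates, and all intervals given here are 95% intervals for counting error only. Levels are in CPM (counts scaled to the same fixed total over the regions with a peak in both libraries, called shared), and ratios are log2 of DOX over EtOH. A total of 23 barcodes occurred in both libraries. Nuclei were clustered together without the regions of the Gata genes and named from marker genes. An immune-like cluster, with 5 of 6 immune markers higher than in the other nuclei, held 42.0% of the DOX nuclei (1290) and 9.12% of the EtOH nuclei (283). The immune markers, none of them at 0, summed to 496 CPM in its DOX and 495 CPM in its EtOH nuclei, to 81.1 and 78.8 CPM in the other nuclei, and to 244 and 108 CPM over all nuclei. A luminal progenitor-like cluster held 57 DOX and 1630 EtOH nuclei, and a hormone-sensing luminal-like class of clusters 3 and 4 held 221 and 1026. Of the unnamed clusters, cluster 2 held 1382 DOX and 7 EtOH nuclei, cluster 5, with both fibroblast and basal markers, held 83 and 136, and cluster 6, of low depth, held 38 and 22. The name luminal progenitor-like rests on 5 of 8 markers and a median log2 fold of 0.41, close to the limit of 0.4, and at a Leiden resolution of 1 the clusters with most of these nuclei had no name. At that resolution cluster 3 also split by library, with 3 DOX and 525 EtOH nuclei in a cluster and 124 and 2 in another, which had no name, while cluster 4 stayed whole (92 and 497). A ratio within cluster 3 thus compares nuclei that can be clustered apart. Clusters made up mostly of 1 library may reflect that library rather than a type of cell. In a library summed over nuclei, fewer nuclei of a type and less accessibility per nucleus cannot be told apart, so ratios are given over all nuclei and, for the regions on which the results turn, also over the nuclei outside the immune-like cluster.

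Sequences are printed for the sites on which the results turn, read from GRCm38. The upstream side of the RefSeq start of Gata3, the most accessible promoter of the family, is shown first (chr2:9878601-9878850, minus strand). The others are the central 300 bases, on the plus strand, of the regions with the highest ratio near Gata2 (region 4, chr6:88184474-88184773), Gata3 (region 4, chr2:9835186-9835485) and Gata4 (region 30, chr14:63308935-63309234), and of a site near Gata3 whose ratio turned with the immune-like nuclei (region 20, chr2:9926550-9926849). Capitals mark a GATA word on either strand, which is AGATAA or 1 of its 3 variants that start with T, end with G or do both. The word is on the other strand in both sequences that hold one, so that the capitals read as its reverse complement, and the sequences with no capitals hold none.
Gata3 upstream of the RefSeq start: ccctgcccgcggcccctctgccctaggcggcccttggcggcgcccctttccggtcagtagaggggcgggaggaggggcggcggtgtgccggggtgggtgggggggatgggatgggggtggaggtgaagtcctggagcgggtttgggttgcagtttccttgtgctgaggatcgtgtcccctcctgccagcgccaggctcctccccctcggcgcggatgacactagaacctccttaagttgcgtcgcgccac
Gata2 region 4: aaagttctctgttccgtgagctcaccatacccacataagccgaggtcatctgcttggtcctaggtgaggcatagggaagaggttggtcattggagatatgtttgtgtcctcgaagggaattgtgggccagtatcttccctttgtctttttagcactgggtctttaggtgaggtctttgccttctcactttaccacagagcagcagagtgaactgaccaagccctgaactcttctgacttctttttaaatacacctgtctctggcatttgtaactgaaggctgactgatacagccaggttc
Gata3 region 4: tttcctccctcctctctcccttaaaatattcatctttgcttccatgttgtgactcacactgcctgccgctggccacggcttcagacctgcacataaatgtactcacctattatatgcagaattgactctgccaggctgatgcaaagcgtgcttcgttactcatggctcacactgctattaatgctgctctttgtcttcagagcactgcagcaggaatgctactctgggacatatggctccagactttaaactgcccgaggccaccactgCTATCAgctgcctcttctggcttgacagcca
Gata3 region 20: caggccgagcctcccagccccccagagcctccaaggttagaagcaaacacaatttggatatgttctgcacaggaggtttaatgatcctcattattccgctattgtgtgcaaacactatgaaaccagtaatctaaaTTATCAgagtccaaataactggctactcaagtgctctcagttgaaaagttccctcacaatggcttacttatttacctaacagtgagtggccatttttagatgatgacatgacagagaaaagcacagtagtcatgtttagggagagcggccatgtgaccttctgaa
Gata4 region 30: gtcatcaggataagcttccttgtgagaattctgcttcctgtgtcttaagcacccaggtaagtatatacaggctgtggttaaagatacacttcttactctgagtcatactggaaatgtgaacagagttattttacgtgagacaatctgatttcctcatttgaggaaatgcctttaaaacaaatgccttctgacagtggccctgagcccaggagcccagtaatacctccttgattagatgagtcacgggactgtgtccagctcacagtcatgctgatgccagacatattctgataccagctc

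At the promoters (shared regions within 1 kb of any TSS of the gene), Gata3 was by far the most accessible member in both libraries. Its promoter took 69.4 CPM in DOX and 78.5 CPM in EtOH, with a log2 ratio of -0.18 (-0.22 to -0.13). The promoter of Gata2 took 10.97 CPM in DOX and 9.87 CPM in EtOH (0.15, 0.03 to 0.28). Gata2 regions 7 and 9 also lie within 1 kb of a TSS. They had a peak in EtOH only (486 and 216 counts) and did not enter this ratio. Over all members, 11 of 15 such regions were shared, 2 had a peak in DOX only and these 2 in EtOH only. For Gata4 the levels were 4.62 and 7.62 CPM, and the ratio of -0.72 (-0.89 to -0.56) was the lowest of the family. Gata6 had 3.39 and 4.10 CPM (-0.27, -0.48 to -0.07), and Gata5 had 2.71 and 3.53 CPM (-0.38, -0.61 to -0.16). Gata1 had no shared region at a TSS, and hence no promoter ratio. Over all nuclei the intervals of all 5 promoters lay beyond 0, above it for Gata2 and below it for the other 4, although with the median ratio of all shared regions set to 0 that of Gata6 included 0. Among 16341 protein-coding genes, 53.8% were higher and 24.3% lower beyond their intervals.

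The promoters summed different widths, from 0.875 kb for Gata5 to 3.408 kb for Gata3. Per kb of region Gata3 still led, with 20.4 CPM in DOX and 23.0 CPM in EtOH, followed by Gata2 with 6.42 and 5.77 CPM. Gata4, which has 3 promoter regions, was the lowest per kb in both libraries with 1.70 and 2.80 CPM.

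Over the nuclei outside the immune-like cluster, only the promoter of Gata4 had an interval that left out 0. The make-up of these nuclei differs between the libraries, with 1382 DOX and 7 EtOH nuclei in cluster 2 and 57 and 1630 luminal progenitor-like nuclei. Make-up and accessibility per nucleus thus cannot be told apart in these ratios either. This holds for the Gata4 promoter too. The Gata4 promoter took 6.06 CPM in DOX and 7.94 CPM in EtOH, a log2 ratio of -0.39 (-0.57 to -0.21). The ratio was -0.06 for Gata2 (-0.21 to 0.09), 0.04 for Gata3 (-0.01 to 0.10), 0.02 for Gata5 (-0.22 to 0.26) and -0.01 for Gata6 (-0.25 to 0.21). Among 16233 protein-coding genes, 24.5% were then higher and 16.9% lower beyond their intervals.

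Resolved by class, the promoter of Gata3 took 48.0 CPM in the immune-like nuclei of DOX and 49.5 CPM in those of EtOH. In every other class of at least 50 nuclei it took more, from 71.9 CPM (cluster 5, DOX) to 98.4 CPM (luminal progenitor-like, DOX), with 82.0 and 80.4 CPM in hormone-sensing luminal-like nuclei of DOX and EtOH. Gata2 was highest in immune-like nuclei in both libraries, with 13.6 CPM (12.5 to 14.8) in immune-like DOX nuclei against 9.33 CPM (8.50 to 10.2) in cluster 2 and 9.57 CPM (7.64 to 11.8) in the hormone-sensing luminal-like class. In the 57 luminal progenitor-like DOX nuclei it took 11.9 CPM (7.34 to 18.3), an interval that covers the immune-like level. In EtOH the Gata2 promoter took 12.5 CPM (10.0 to 15.3) in immune-like and 10.6 CPM (9.68 to 11.5) in luminal progenitor-like nuclei, and these intervals overlapped.

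Gata4 was highest in the luminal progenitor-like cluster, with 9.32 CPM in DOX (5.33 to 15.1, from 32 counts) and 9.63 CPM in EtOH (8.80 to 10.5). The hormone-sensing luminal-like class had 4.42 CPM (3.14 to 6.04) and 5.72 CPM (4.97 to 6.54), and immune-like nuclei 2.40 CPM (1.95 to 2.92) and 3.43 CPM (2.21 to 5.09). In both libraries these levels lay in this order, although the intervals of the first pair overlapped in DOX and those of the last pair in EtOH. Cluster 2, nearly all DOX, took 6.26 CPM (5.59 to 6.99) in DOX. Gata5 took 1.08 CPM in immune-like DOX nuclei and 1.26 CPM in those of EtOH, against 2.39 to 4.28 CPM in the other classes. Gata6 took 2.28 and 3.43 CPM in immune-like nuclei and 2.69 to 4.87 CPM elsewhere, and its intervals overlapped between most classes.

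Within a class, 1 of the 20 promoter ratios had an interval that left out 0. This was Gata3 in luminal progenitor-like nuclei, with 98.4 CPM in 57 DOX nuclei and 81.1 CPM in 1630 EtOH nuclei (0.28, 0.05 to 0.50). Counting error alone can put about 1 in 20 such intervals beyond 0, so this ratio is not read as a difference. The share over all genes within a class is not given here. For Gata4 the ratio was -0.37 (-0.90 to 0.13) in the hormone-sensing luminal-like class, -0.34 (-1.21 to 0.49) in cluster 5, -0.52 (-1.17 to 0.18) in immune-like nuclei and -0.05 (-0.87 to 0.67) in luminal progenitor-like nuclei. These intervals are wide, and they neither leave out a ratio of 0 nor the value of -0.39 found over all nuclei outside the immune-like cluster.

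**Figure D1:**
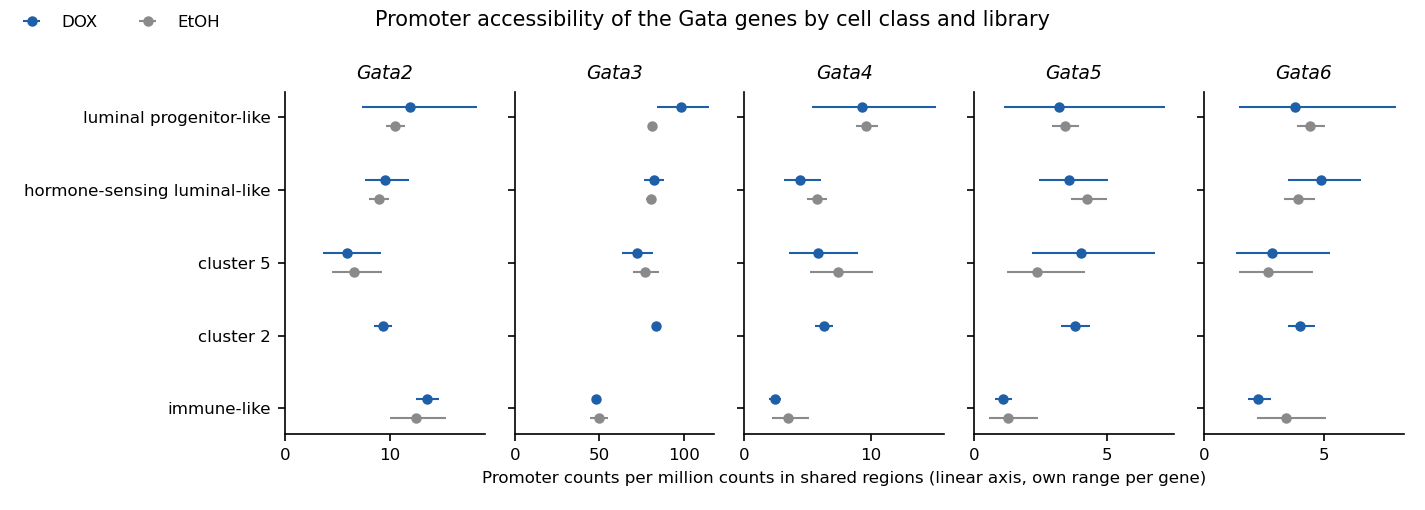
Promoter accessibility in CPM (horizontal linear axis with its own range for each gene) of Gata2, Gata3, Gata4, Gata5 and Gata6 in each class (vertical axis) of at least 50 nuclei, with DOX and EtOH as separate points and exact Poisson 95% intervals as bars. Gata3 sits near 48.0 CPM in immune-like nuclei of DOX and above 71 CPM in the other classes, while Gata2 is at 13.6 CPM in immune-like DOX nuclei.

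The share of nuclei with a fragment in the promoter gave the same order once each nucleus was thinned to 5000 fragments (which kept 1259 immune-like and 1673 other DOX nuclei, and 275 and 2711 EtOH nuclei). For Gata3 it was 20.4% of immune-like and 34.3% of other DOX nuclei, and 23.4% and 33.4% in EtOH. For Gata2 it was 6.22% and 4.52% in DOX and 6.20% and 4.86% in EtOH, so that the immune-like share was the higher one. For Gata4 the shares were 1.21% and 3.05% in DOX and 1.97% and 3.89% in EtOH. Gata5 (0.605% and 2.02% in DOX, 0.623% and 1.97% in EtOH) and Gata6 (1.16% and 1.97%, 1.62% and 1.96%) were also lower in immune-like nuclei. Without thinning, 75.3% of immune-like and 83.2% of other DOX nuclei had a count at the Gata3 promoter, and 67.1% and 84.3% in EtOH. The Gata2 shares without thinning were 32.6% and 27.5% in DOX but 24.0% and 25.9% in EtOH, so that the order was turned in EtOH. Fragments from free DNA were not measured apart, so the low shares of Gata5 and Gata6 are not read as the share of nuclei with an open promoter.

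Of the 114 regions, 77 had a peak in both libraries, 20 in DOX only and 17 in EtOH only. Where a library had no peak it has no deposited value either, and this was not read as a count of 0. The single-library regions were 32.5% of the Gata regions, against 36.5% of all regions, and held 69 to 414 counts in DOX (median 145) or 102 to 524 in EtOH (median 219). By gene, the regions with a peak in both libraries numbered 11 of 15 for Gata1, 10 of 16 for Gata2, 17 of 20 for Gata3, 19 of 30 for Gata4, 10 of 14 for Gata5 and 10 of 19 for Gata6.

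Of the 77 shared regions, 3 reached a 2-fold higher level in DOX (3.90%) and 10 a 2-fold lower one (13.0%). Over all 174772 shared regions with at least 100 counts, 13.0% were higher and 13.4% lower, so that the lower share of the Gata regions was near the background and the higher share below it. The median log2 ratio was -0.24 over the Gata regions and -0.13 over all shared regions. Outside the immune-like cluster 2 of 77 were higher and 9 lower, against 5.35% and 8.58% of all regions, and the medians were -0.04 and -0.06. In the hormone-sensing luminal-like class, 59 regions held at least 100 counts, of which 0 reached a 2-fold higher and 4 a 2-fold lower level, against 4.58% and 5.22% of all regions. No test was made there. Beyond their intervals 2 of the 59 were higher, 8 lower and 49 within, beside 13.9% and 14.6% higher and lower over all regions.

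**Figure D2:**
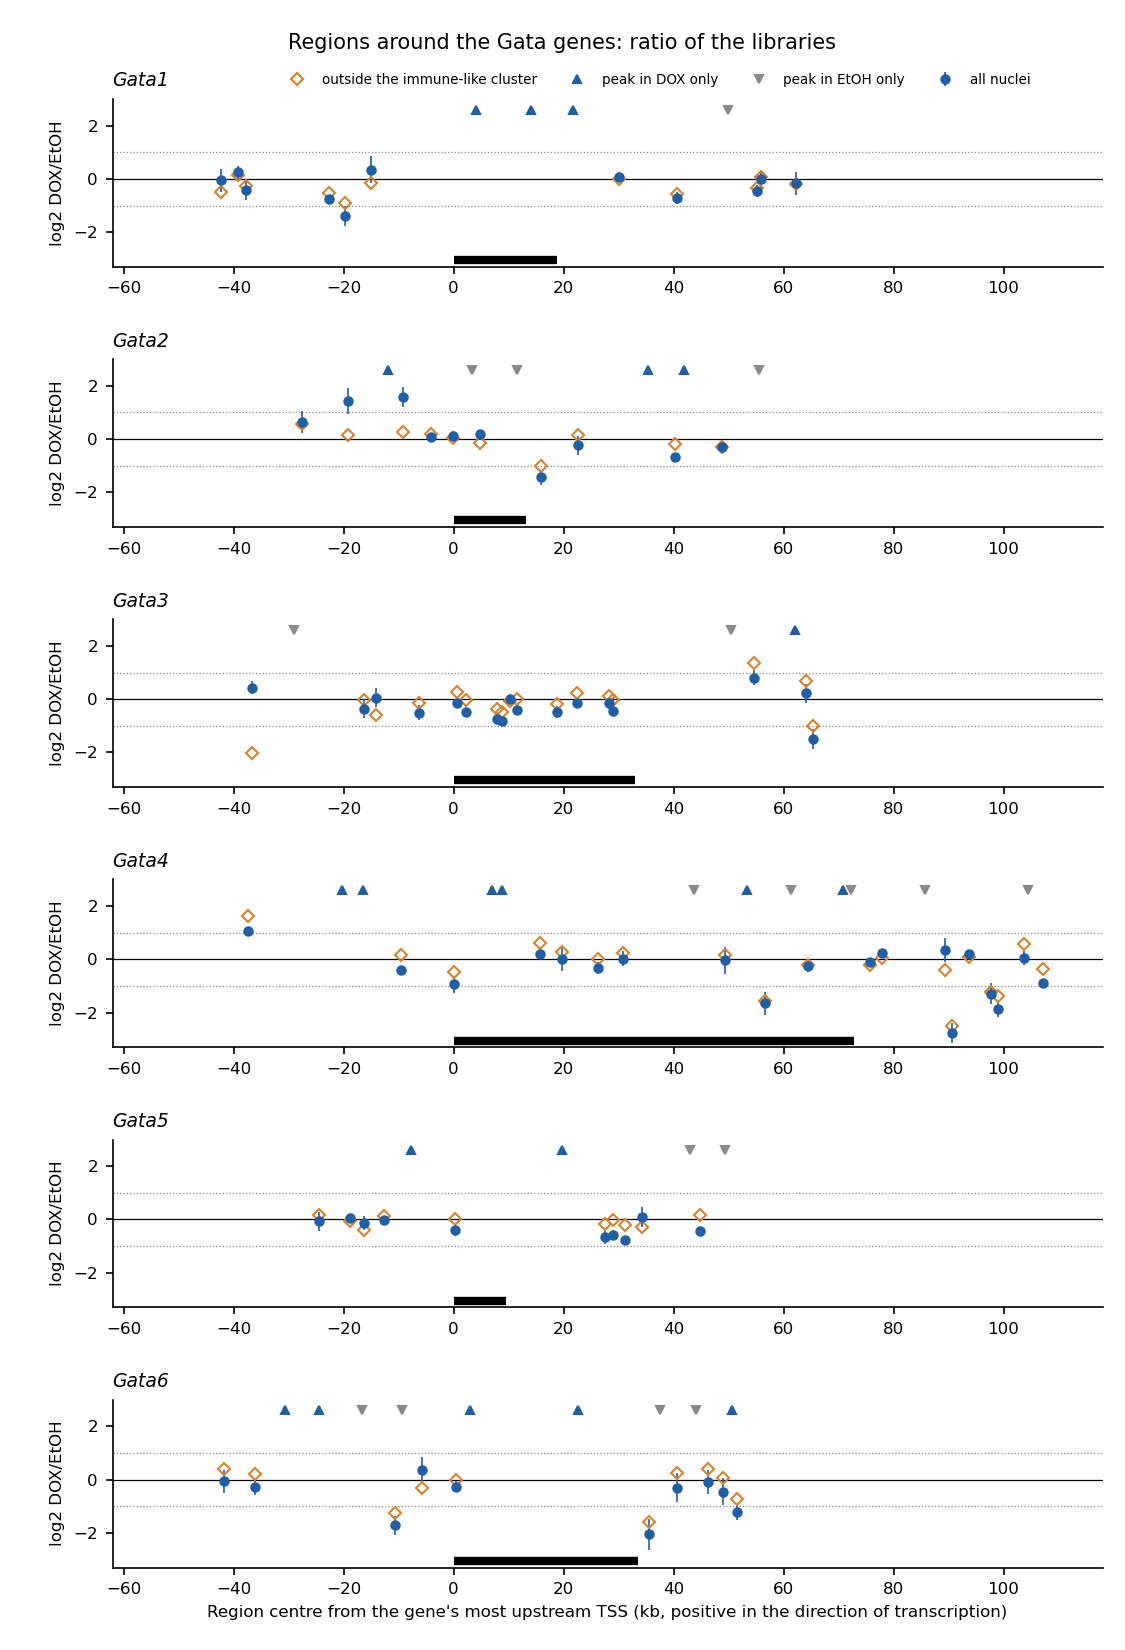
Log2 ratio of DOX over EtOH of each shared region over all nuclei, plotted against its distance from the most upstream TSS in kb, with a panel for each Gata gene. Filled points are all nuclei with 95% counting intervals, open points are nuclei outside the immune-like cluster, triangles mark regions with a peak in 1 library, black bars are gene bodies and dotted lines a 2-fold ratio. The 3 regions at least 2-fold higher lie near Gata2 and Gata4, and 4 of the 10 at least 2-fold lower lie near Gata4. Gata4 has 19 of the 77 shared regions.

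The 11 shared regions at the TSS of the Gata genes themselves had a median log2 ratio of -0.31 over all nuclei and -0.01 outside the immune-like cluster. The 14 at promoters of other genes had -0.30 and -0.01, and the 9 in the rest of the gene bodies -0.15 and 0.16, so that the sign turned there. The 43 regions outside the gene bodies and away from promoters had -0.17 and -0.19. Of the 25 regions within 1 kb of any TSS, 2 were at least 2-fold apart in either direction, beside 14.9% of all shared regions at such places, and of the 52 others 11, beside 29.1%. With the immune-like cluster left out these counts were 2, beside 6.58%, and 9, beside 15.7%.

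Gata3 (chromosome 2, 9857078 to 9890034, minus strand, 6 annotated TSS) had the most regions at promoters with high counts. Its 4 shared promoter regions differed in their pattern over the nuclei. Region 11, in an intron 1.12 kb upstream of an internal TSS, took 33.4 CPM in DOX and 33.4 CPM in EtOH (0.00, -0.07 to 0.07). It was as open in immune-like nuclei (35.7 and 35.9 CPM) as in hormone-sensing luminal-like nuclei (32.5 and 33.0 CPM).

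Region 10, which holds the printed sequence upstream of the RefSeq start, took 5.70 and 6.10 CPM in immune-like nuclei of DOX and EtOH, against 23.0 and 20.3 CPM in the hormone-sensing luminal-like class. Region 15, near the first TSS, took 5.63 and 6.94 CPM against 20.7 and 20.0 CPM. Region 14 took 1.06 and 0.63 CPM against 5.78 and 7.07 CPM. The lower Gata3 promoter level of immune-like nuclei thus came from regions 10, 14 and 15 and not from region 11, a comparison made after the values were seen. Over all nuclei the ratios were -0.42 for region 10 (-0.51 to -0.33), -0.49 for region 14 (-0.67 to -0.32) and -0.16 for region 15 (-0.26 to -0.06), and outside the immune-like cluster 0.01, -0.01 and 0.26 (0.16 to 0.37).

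The lowest ratio near Gata3 was in region 1 (intergenic, 65.4 kb downstream of the first TSS), with 175 counts in DOX and 465 in EtOH (-1.49, -1.86 to -1.13). Outside the immune-like cluster it was -1.01 (-1.40 to -0.64). Most of its EtOH counts (308) came from luminal progenitor-like nuclei, at 3.03 CPM, a cluster that held 4 counts in DOX. In the hormone-sensing luminal-like class the levels were 1.93 CPM in DOX and 1.71 CPM in EtOH.

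The highest ratio was in region 4 (intergenic, 54.7 kb downstream), with 627 counts in DOX and 339 in EtOH (0.81, 0.53 to 1.08). Outside the immune-like cluster the levels were 4.69 and 1.82 CPM and the ratio 1.37 (1.09 to 1.65), which made it 1 of the 2 Gata regions at least 2-fold higher there. The level was 5.33 CPM in cluster 2, which is nearly all DOX, while in the hormone-sensing luminal-like class it was 1.76 CPM in DOX and 1.69 CPM in EtOH (0.06, -0.85 to 0.88).

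Region 20 lies 36.7 kb upstream of Gata3 in an intron of Taf3, the gene of a TFIID subunit. It held 764 counts in DOX and 534 in EtOH, a log2 ratio of 0.43 (0.21 to 0.67), but outside the immune-like cluster the levels were 0.49 CPM in DOX and 2.0 CPM in EtOH and the ratio was -2.04 (-2.63 to -1.49). Immune-like nuclei supplied 91.8% of its DOX counts and 30.1% of its EtOH counts, at 8.41 and 11.3 CPM. The site was thus most open in immune-like nuclei of both libraries. The 5 T and NK cell markers, of which 2 had no counts in shared regions, summed to 58.9 and 56.5 CPM in these nuclei and to 24.0 and 27.1 CPM in the others. Of the 3 measured, Cd3d alone was higher in the immune-like cluster (log2 fold over the other nuclei 3.34), while Cd3e (-0.90) and Cd247 (-0.10) were not. Their part in the Gata3 values was not tested. In the hormone-sensing luminal-like class region 20 took 1.64 CPM in DOX and 3.21 CPM in EtOH (-0.97, -1.86 to -0.18), although within clusters 3 (-1.76) and 4 (-0.66) the intervals included 0.

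Gata2 (chromosome 6, 88193891 to 88207032, plus strand) had 2 of the 3 regions at least 2-fold higher in DOX, both upstream of the gene. They were 2 of its 10 shared regions, beside 13.0% of all shared regions. Region 4, 9.27 kb upstream, held 512 counts in DOX and 162 in EtOH (2.41 and 0.81 CPM), a ratio of 1.58 (1.21 to 1.96). Region 2, 19.2 kb upstream, held 271 and 96 counts (1.28 and 0.48 CPM), a ratio of 1.42 (0.93 to 1.92). Immune-like nuclei supplied 84.6% of the DOX counts of region 4 and 77.5% of those of region 2.

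Among immune-like nuclei alone, region 4 took 5.19 CPM in DOX and 4.62 CPM in EtOH (0.17, -0.37 to 0.74). Outside them it took 0.61 and 0.51 CPM (0.25, -0.40 to 0.89), and region 2 took 0.47 and 0.42 CPM (0.16, -0.57 to 0.88). Neither region was then apart beyond its interval. Within immune-like nuclei region 2 took 2.52 CPM in DOX and 1.19 CPM in EtOH (1.08, 0.08 to 2.29). Region 3, which lies between them at 11.9 kb upstream and had a peak in DOX only, held 414 counts, 93.7% of them from immune-like nuclei. The 5 mast cell markers, of which 2 had no counts in shared regions, summed to 41.2 CPM in immune-like nuclei of DOX and 27.4 CPM in those of EtOH, and to 19.1 and 22.4 CPM in the other nuclei. Of the 2 with a measured fold, Hdc was higher in the immune-like cluster (log2 fold over the other nuclei 1.11) and Cma1 lower (-0.50). Their part in the Gata2 values was not tested.

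On the other side of Gata2, region 10 (intergenic, 15.9 kb downstream of the first TSS) held 296 counts in DOX and 756 in EtOH (-1.43, -1.72 to -1.16), and outside the immune-like cluster the ratio was -1.02 (-1.32 to -0.73). The level was higher in luminal progenitor-like nuclei, at 5.53 CPM in DOX and 6.27 CPM in EtOH (-0.18, -1.29 to 0.74), against at most 1.49 CPM in hormone-sensing luminal-like, cluster 5 and immune-like nuclei of either library, and 2.15 CPM in cluster 2 of DOX. The region with the highest count was region 15, in an intron of Dnajb8, a gene of the HSP40 chaperone family, with 1862 counts in DOX and 2140 in EtOH (-0.28, -0.41 to -0.15).

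Gata4 (chromosome 14, 63198922 to 63271692, minus strand) had 5 of the 13 regions at least 2-fold apart, 1 higher and 4 lower. It also had the most shared regions, 19 of 77, and over all shared regions 13.0% were higher and 13.4% lower. The lowest ratio of all 77 regions was in region 7, an intergenic site 90.7 kb downstream of the first TSS and 32.6 kb from the nearest one, within 1 kb of a TSS of Fdft1, the gene of squalene synthase. It held 144 counts in DOX and 914 in EtOH (0.68 and 4.55 CPM), a ratio of -2.75 (-3.13 to -2.39), and -2.49 (-2.92 to -2.09) outside the immune-like cluster. The hormone-sensing luminal-like class gave 57 of its DOX and 794 of its EtOH counts, at 3.23 CPM in DOX and 10.7 CPM in EtOH (-1.73, -2.33 to -1.18).

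The ratio of region 7 was below 0 beyond its interval in both clusters of that class, -2.40 (-3.42 to -1.53) in cluster 3 and -1.08 (-1.88 to -0.37) in cluster 4, the one that did not split by library. The neighbouring region 4, in an intron of Fdft1, showed another pattern. It held 274 counts in DOX and 943 in EtOH (-1.87, -2.15 to -1.59), with a ratio of -1.39 (-1.69 to -1.11) outside the immune-like cluster, but within the hormone-sensing luminal-like class it took 9.74 and 11.8 CPM (-0.27, -0.63 to 0.06). Region 5, also in an Fdft1 intron, held 165 and 380 counts (-1.29, -1.68 to -0.91), with 1.98 and 3.34 CPM in that class (-0.75, -1.57 to -0.03), although within clusters 3 (-0.87) and 4 (-0.60) the intervals included 0. Its ratio outside the immune-like cluster was -1.22 (-1.69 to -0.78). The main promoter of Fdft1, region 6, had the highest count of all these regions with 12510 in DOX and 10380 in EtOH (0.19, 0.13 to 0.24).

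The fourth lower region, region 16, lay in a Gata4 intron 1.36 kb from an internal TSS. It held 120 counts in DOX and 353 in EtOH (-1.64, -2.09 to -1.21), and outside the immune-like cluster its ratio was -1.55 (-2.08 to -1.05). It was most open in luminal progenitor-like nuclei, at 1.75 CPM in DOX (6 counts) and 2.98 CPM in EtOH. Region 26, at the first TSS of Gata4, held 260 and 470 counts (-0.94, -1.26 to -0.62), and -0.46 (-0.80 to -0.13) outside the immune-like cluster.

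Region 30, 37.4 kb upstream of Gata4, had the highest ratio near this gene, and held 1846 counts in DOX and 839 in EtOH (8.69 and 4.18 CPM). The ratio was 1.06 (0.89 to 1.23) over all nuclei and 1.63 (1.46 to 1.80) outside the immune-like cluster. The level was 15.4 CPM in cluster 2, and in the hormone-sensing luminal-like class 9.91 CPM in DOX and 5.46 CPM in EtOH (0.86, 0.48 to 1.23). Both clusters of that class had a ratio above 0 beyond its interval, 0.68 (0.20 to 1.14) in cluster 3 and 1.12 (0.47 to 1.74) in cluster 4. Immune-like nuclei took 0.71 CPM in DOX and 0.42 CPM in EtOH.

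Region 23, in a Gata4 intron, was the other region of at least 100 counts in the hormone-sensing luminal-like class with a ratio above 0 beyond its interval. It took 16.7 CPM in DOX and 9.23 CPM in EtOH (0.85, 0.56 to 1.14), with 0.93 (0.56 to 1.29) in cluster 3 and 0.70 (0.21 to 1.17) in cluster 4. Over all nuclei it held 2140 and 1763 counts (0.20, 0.07 to 0.33), and outside the immune-like cluster the ratio was 0.61 (0.48 to 0.75). Near Gata4, sites with a higher and sites with a lower ratio were thus found in the same class of nuclei.

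**Figure D3:**
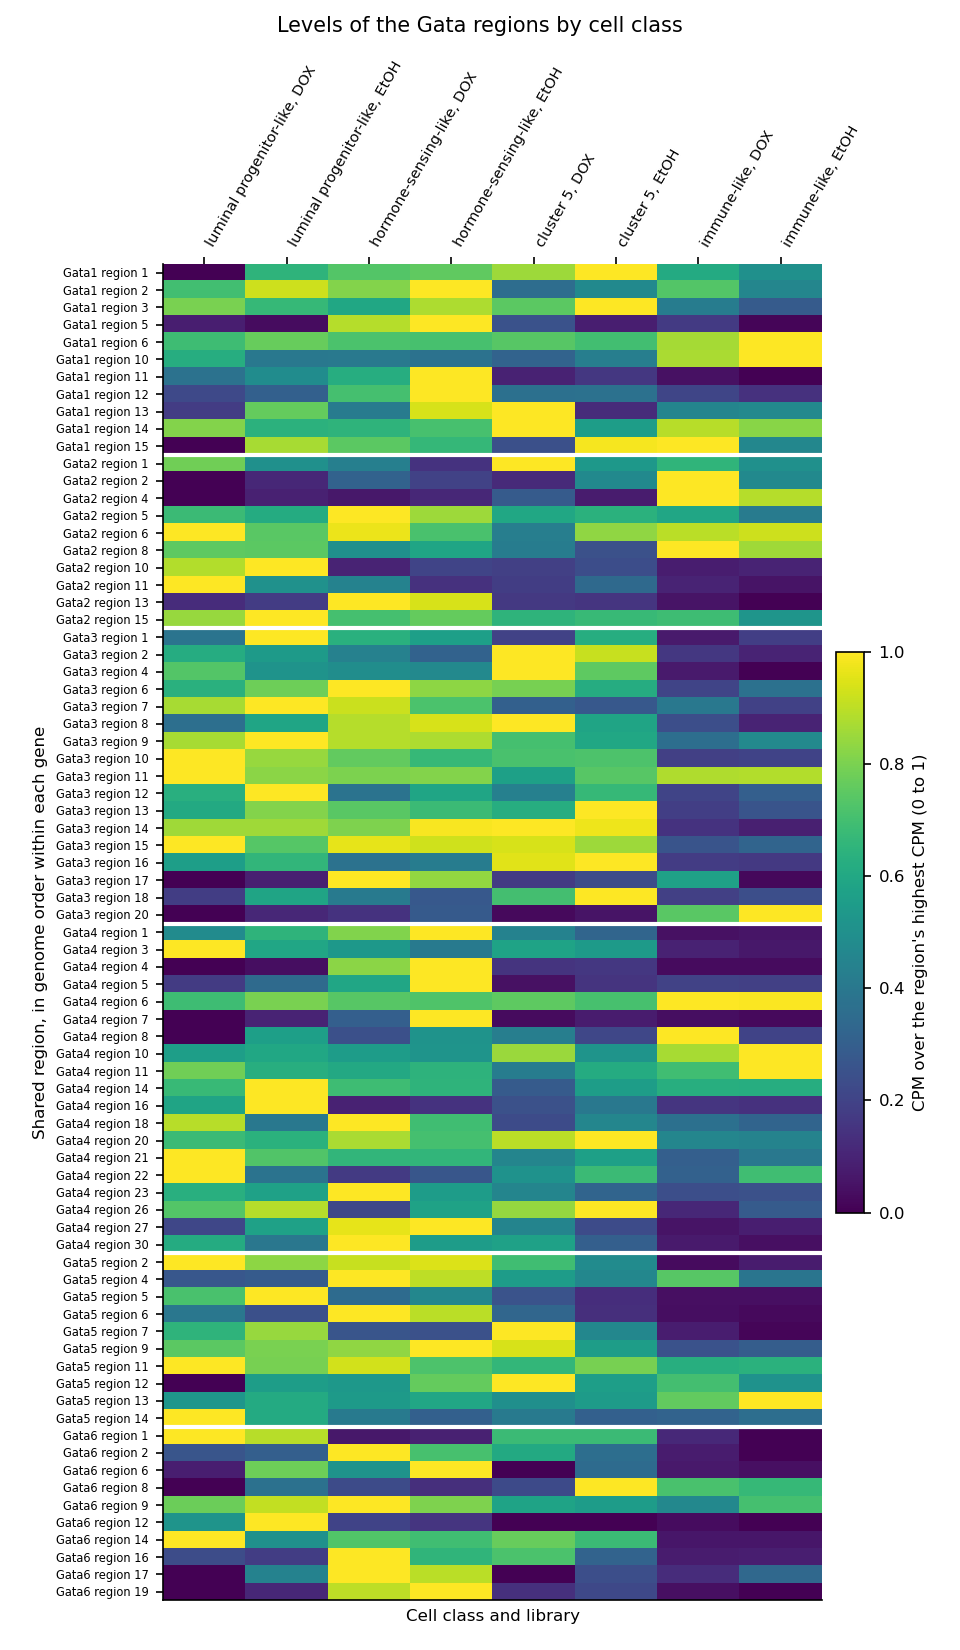
Accessibility of the 77 shared regions (rows) in 4 classes of nuclei of DOX and EtOH (columns), as CPM divided by the highest CPM of the region, on a colour scale from 0 to 1. Gata2 region 4 and Gata3 region 20 are highest in immune-like nuclei, Gata2 region 10 in luminal progenitor-like nuclei, and Gata4 region 7 in hormone-sensing luminal-like nuclei of EtOH.

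Gata6 (chromosome 18, 11052064 to 11085635, plus strand) had 3 lower and 0 higher regions among 10. Over all shared regions 13.4% were lower and 13.0% higher, and with 10 regions the count is not read as a difference from that share. Region 12, 35.6 kb downstream of the first TSS, held 65 counts in DOX and 254 in EtOH (-2.05, -2.65 to -1.48), and outside the immune-like cluster its ratio was -1.58 (-2.21 to -0.99). Its level in luminal progenitor-like nuclei was 1.17 CPM in DOX (4 counts) and 2.25 CPM in EtOH. Region 6, 10.7 kb upstream in an intron of 1010001N08Rik, held 173 and 537 counts (-1.72, -2.08 to -1.36), and -1.27 (-1.65 to -0.90) outside the immune-like cluster.

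In the hormone-sensing luminal-like class, Gata6 region 6 took 1.76 CPM in DOX and 3.41 CPM in EtOH (-0.96, -1.82 to -0.19), with -1.56 (-3.06 to -0.37) in cluster 3 and -0.38 (-1.55 to 0.62) in cluster 4. Region 19, 51.5 kb downstream, held 260 and 564 counts (-1.20, -1.51 to -0.89), but -0.71 (-1.04 to -0.40) outside the immune-like cluster, where it was no longer 2-fold lower. In that class it took 5.78 and 6.41 CPM (-0.15, -0.61 to 0.29). The highest ratio near Gata6 was in region 8 (182 and 134 counts), at 0.36 (-0.11 to 0.84). The promoter was region 9, with 720 counts in DOX and 822 in EtOH. Region 10, at an internal TSS, had a peak in DOX only with 353 counts.

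Gata5 (chromosome 2, 180325133 to 180334699, minus strand) had no region at least 2-fold apart among 10, beside 13.0% higher and 13.4% lower of all shared regions. The lowest ratio was in region 5, 31.2 kb downstream, with 1143 counts in DOX and 1858 in EtOH (-0.78, -0.94 to -0.63). Outside the immune-like cluster it was -0.22 (-0.38 to -0.07). The highest was in region 4 (256 and 229 counts) at 0.08 (-0.30 to 0.46). Region 2, at a promoter of Rbbp8nl, had the highest count with 3488 in DOX and 4455 in EtOH. Its ratio was -0.44 (-0.53 to -0.34) over all nuclei and 0.16 (0.07 to 0.25) outside the immune-like cluster, where it took 26.5 and 23.7 CPM against 0.83 and 2.10 CPM in immune-like nuclei.

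Gata1 (chromosome X, 7959260 to 7978071, minus strand) had no shared region at its TSS. Region 8, at an internal TSS, had a peak in DOX only with 261 counts, of which 88.9% came from immune-like nuclei. Of its 11 shared regions 1 was at least 2-fold apart, beside 13.0% higher and 13.4% lower of all shared regions. This was region 11, 19.7 kb upstream, with 157 counts in DOX and 388 in EtOH (-1.39, -1.78 to -1.0). Its ratio outside the immune-like cluster was -0.89 (-1.30 to -0.49). It took 1.93 and 3.09 CPM in the hormone-sensing luminal-like class (-0.68, -1.51 to 0.06). The highest ratio was in region 10, at 0.35 (-0.14 to 0.86), with 165 and 122 counts. Region 6 at the promoter of Hdac6, the gene of a tubulin deacetylase, had the highest count with 7205 in DOX and 6524 in EtOH (0.06, -0.01 to 0.13).

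**Figure D4:**
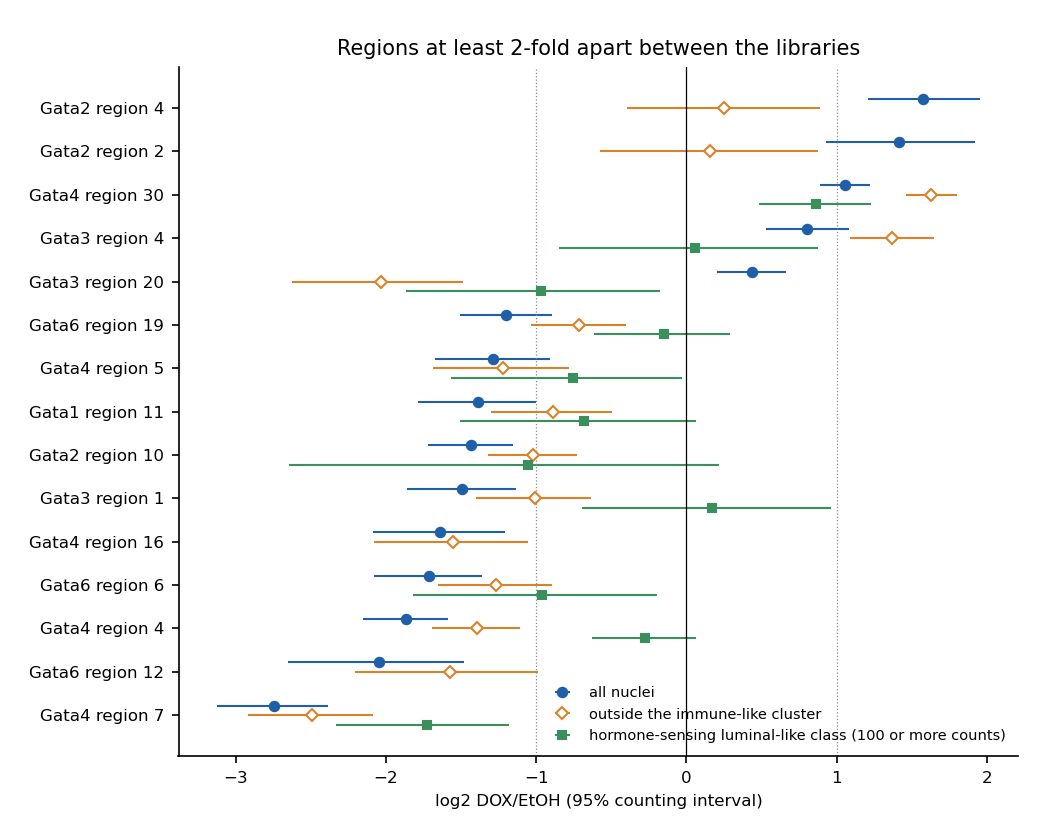
Log2 ratio of DOX over EtOH with its 95% counting interval (horizontal axis) for the regions at least 2-fold apart over all nuclei or outside the immune-like cluster, with points for both and for the hormone-sensing luminal-like class where it held at least 100 counts. The ratios of Gata2 regions 2 and 4 move from above 1 to intervals that include 0, while that of Gata4 region 30 moves from 1.06 to 1.63.

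Across the 77 shared regions, the class with the highest CPM was the same in both libraries for 51 (beside 72.8% of all shared regions), among the luminal progenitor-like, hormone-sensing luminal-like, cluster 5 and immune-like nuclei. It was the hormone-sensing luminal-like class for 22, the luminal progenitor-like cluster for 13, and cluster 5 and the immune-like cluster for 8 each. A level at least 3-fold above every other of these classes in both libraries was found for 8 regions (10.4%, beside 19.0% of all shared regions). Of these, 5 were highest in hormone-sensing luminal-like nuclei (Gata1 region 5, Gata2 region 13, Gata4 regions 4 and 7 and Gata6 region 19), 1 in luminal progenitor-like nuclei (Gata2 region 10) and 2 in immune-like nuclei (Gata2 region 4 and Gata3 region 20). With cluster 2 of DOX included, Gata2 region 13 (13.6 against 4.79 CPM) and region 10 (5.53 against 2.15 CPM) fell below 3-fold, which left 6 regions, beside 16.0% of all. Immune-like nuclei had the lowest CPM in both libraries for 36 of 77 regions (46.8%), beside 40.3% of all shared regions, and for 12 of the 17 near Gata3.

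In the hormone-sensing luminal-like class, Gata2 region 13 took 13.6 CPM in DOX and 12.8 CPM in EtOH (0.09, -0.21 to 0.38), against 0.70 CPM and 0 counts in immune-like nuclei. Gata1 region 5, at a promoter of Hdac6, took 9.40 and 10.6 CPM in that class (-0.17, -0.53 to 0.17). Of the 5 regions that were at least 3-fold higher in this class than in the other classes, Gata4 region 7 was the only one with a ratio beyond its interval within it.

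The partners of the GATA factors were compared next, as a list of 17 genes chosen for their known role. It holds 8 cofactors (the FOG proteins Zfpm1 and Zfpm2, the LIM-domain partners Ldb1, Ldb2, Lmo2 and Lmo4, and the helix-loop-helix factors Tal1 and Lyl1) and 9 genes with a GATA-type zinc finger, of which Zglp1 had no shared promoter region. Over all nuclei, 11 of the 16 were higher beyond their intervals, 3 lower and 2 within, beside 53.8% and 24.3% of all genes. Their median log2 ratio was 0.09, as over all genes (0.09). Outside the immune-like cluster 6 were higher, 4 lower and 6 within, beside 24.5% and 16.9% of all genes, with medians of 0.02 and 0.02.

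The highest ratios were those of Tal1 and Lyl1, which partner GATA factors in blood cells. Tal1 took 10.8 CPM in DOX and 6.08 CPM in EtOH (0.82, 0.68 to 0.97), and 5.46 and 4.95 CPM outside the immune-like cluster (0.14, -0.06 to 0.34). Lyl1 took 15.5 and 8.67 CPM (0.84, 0.72 to 0.96), and 7.51 and 6.44 CPM (0.22, 0.05 to 0.40). Both were above 18 CPM in immune-like nuclei, with 19.0 and 20.8 CPM for Tal1 and 27.9 and 37.9 CPM for Lyl1.

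Lmo2, which bridges TAL1 and GATA factors, reversed its direction. It took 12.3 CPM in DOX and 10.7 CPM in EtOH (0.21, 0.09 to 0.33) over all nuclei, but 4.26 and 9.11 CPM outside the immune-like cluster (-1.10, -1.30 to -0.90). In immune-like nuclei it took 24.8 and 31.0 CPM. It was thus the lowest ratio of the list outside the immune-like cluster, where the next was Mta1 at -0.24 (-0.34 to -0.13).

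Among the other cofactors the ratio over all nuclei and then outside the immune-like cluster was 0.15 and 0.04 for Zfpm1, 0.14 and 0.00 for Ldb1, and 0.08 and 0.05 for Lmo4. Ldb2 had -0.65 and -0.06, and Zfpm2 -0.05 and 0.38 (0.12 to 0.63). Of the genes with a GATA-type zinc finger, Trps1, the shRNA target, took 40.4 CPM in DOX and 25.3 CPM in EtOH (0.68, 0.60 to 0.75), and 28.9 and 22.7 CPM outside the immune-like cluster (0.35, 0.26 to 0.44). Within immune-like nuclei its promoter took 58.3 and 59.2 CPM (-0.02, -0.17 to 0.13). The shRNA acts on RNA, so that this is no measure of the knockdown. The NuRD subunit genes Gatad2a (0.09 and -0.02), Gatad2b (0.07 and -0.03) and Mta2 (-0.04 and -0.08) had small ratios, which were above 0 beyond the interval for the first pair over all nuclei and below 0 for Mta2 outside the immune-like cluster. Those of Mta1 (-0.30 and -0.24) and Mta3 (-0.15 and -0.17) were below 0 beyond their intervals over both sets of nuclei, and that of the corepressor gene Rere (0.09 and 0.10) was above it in both. Gatad1 had 0.25 and 0.10.

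**Figure D5:**
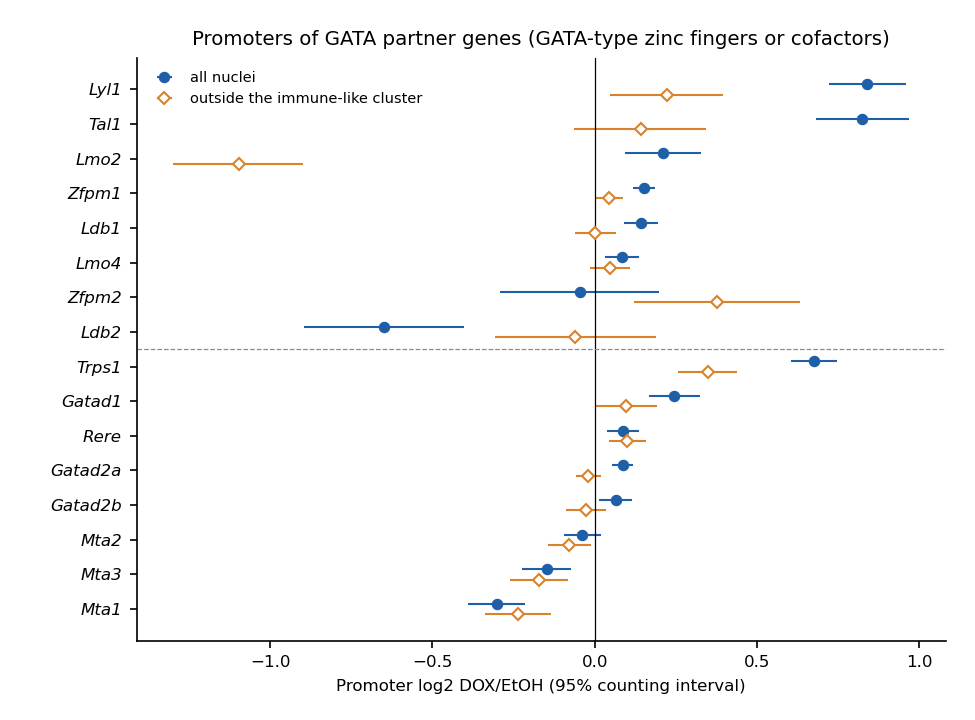
Promoter log2 ratio of DOX over EtOH with 95% counting intervals (horizontal axis) for the 16 partner genes, cofactors above and GATA-type zinc finger genes below the dashed line, over all nuclei and over nuclei outside the immune-like cluster. Lmo2 lies at 0.21 over all nuclei and at -1.10 outside the immune-like cluster, while Trps1 is above 0 in both.

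GATA words (AGATAA and the 3 variants named above, on either strand) occurred in the central 300 bases of 25 of the 77 regions (32.5%, 22.2 to 44.1%) and of 34.5% of all shared regions. By gene they occurred in 8 of 17 regions near Gata3, 6 of 19 near Gata4, 5 of 10 near Gata5, 3 of 10 near Gata2, 2 of 10 near Gata6 and 1 of 11 near Gata1. The median ratio was -0.13 for the 25 regions with a word and -0.27 for the 52 without, beside -0.05 and -0.17 for all shared regions. Outside the immune-like cluster these medians were -0.14 and -0.03, beside 0.02 and -0.09, so that the order was turned for the Gata regions. Of the sequences printed above, that of Gata3 region 4 holds TGATAG and that of Gata3 region 20 TGATAA. In the RefSeq promoter table, 0 of 5 Gata entries (2 for Gata2 and 1 each for Gata1, Gata3 and Gata5) held a word in the 250 bases before the start, and 26.5% of 32851 promoters did. A match is a description of the letters and not a bound site.

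Finally, promoters with a pattern most like that of each Gata gene were listed, over 9 groups of class and library with at least 50 nuclei. These groups share 2 libraries, so that Pearson's r is given as a description. The highest r was with C2cd5 (0.99), Cenpj (0.99) and Jpt2 (0.99) for Gata2, and with Sox13 (0.995), Tspear (0.994) and Hap1 (0.993) for Gata3. It was with Spaar (0.98), Carmil2 (0.98) and Sipa1l3 (0.97) for Gata4, with Sh3bgr (0.99), Wfikkn1 (0.98) and Abca4 (0.98) for Gata5, and with Tmem25 (0.98), Fam131c (0.94) and Prr36 (0.93) for Gata6. An r over 0.9 was reached by 1109 of 15877 genes for Gata3. Of 15878 genes it was reached by 825 for Gata5, 773 for Gata2, 221 for Gata4 and 6 for Gata6. The patterns of Gata3, Gata5 and Gata2 are thus common ones.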

How the data were processed

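Single-cell ATAC-Seq was done on 1 library per group, grouped by the sample labels. For each library the authors deposited a table of counts (transposition events, in whole numbers, for every peak and barcode) beside lists of peaks and of barcodes. The counts were made, per the file headers, with Cell Ranger ATAC 2.0.0, although the additional methods of the study name another version. The labels name mm10, and 0 peaks ended beyond a chromosome of GRCm38. No normalization had been applied, and no filter on nuclei beyond the cell calling is stated. Peaks on unplaced scaffolds (0.135% of the counts in DOX and 0.146% in EtOH) were left out.

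Peaks were merged where they overlapped by at least 1 bp (bedtools 2.31.1), and shared regions held 94.5% and 94.7% of the counts. Since 1 fragment can give a count at either end, intervals were computed on counts divided by 2. They were exact conditional binomial for ratios, exact Poisson for CPM and Clopper-Pearson for shares. A region was compared with at least 100 counts over both libraries and called apart at a 2-fold ratio. Of these steps, the ratio intervals and the 2-fold call were tested on simulated data. The simulated counts came in pairs, as the intervals assume, so that this assumption itself was not tested. Clusters came from TF-IDF and singular value decomposition of shared regions without those of the Gata genes, components 2 to 30, 15 neighbours and the Leiden algorithm at 0.5. A cluster was named from its best list of at least 5 detected markers, by a rule set after the values were seen. In the immune-like cluster the markers higher than elsewhere were 5 of 6 immune, 3 of 8 luminal progenitor, 0 of 8 hormone-sensing luminal, 2 of 8 basal, 1 of 5 fibroblast, 3 of 6 endothelial, 1 of 3 T and NK and 1 of 2 mast cell markers. A doublet score was used as an alternative and no doublets were removed otherwise.

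The regions named are those with the highest ratio, the lowest ratio and the highest count for each gene, all regions called apart, and others said to be chosen after their values were seen, to which the promoter regions of Gata3, Gata4 and Gata6, Gata3 region 20, regions beyond their interval within a class, regions highest in 1 class and regions with a peak in 1 library belong. The genes, regions and lists were chosen with earlier results of these data known. Calculations used Python 3.11.15, numpy 2.4.6, scipy 1.17.1, pandas 2.3.3, scikit-learn 1.9.0, igraph 0.11.9, leidenalg 0.10.2 and matplotlib 3.10.9.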

Additional observations from a re-analysis of the deposited data

Results flagged for a closer look

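The ratios listed here lay on opposite sides of 0 in immune-like and other nuclei, with intervals that left out 0 in both. Other ratios on opposite sides, such as that of the Gata2 promoter (0.12 and -0.06), had an interval that included 0 and are not listed. None of the differences was itself tested, since each group has 1 library, and the values are those of 1 DOX and 1 EtOH library. At Gata1 region 5, within the Hdac6 gene, the log2 ratio was 3.69 in immune-like nuclei, where EtOH held 2 counts, and -0.58 in the other nuclei. At Gata3 region 17, 14.1 kb upstream of Gata3, it was 4.79 in immune-like nuclei, where EtOH held 1 count and DOX 162, and -0.61 in the other nuclei. At Gata5 region 2, a promoter of Rbbp8nl, it was -1.34 in immune-like nuclei (69 and 30 counts) and 0.16 in the others. At the promoter of the cofactor Zfpm1 it was -0.10 and 0.045, and at that of Lyl1 -0.44 and 0.22.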

How the results depend on the processing

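No paired analysis was possible because only 1 library exists per group. Of 62 alternative values, 50 kept their direction and moved by less than their counting interval or, for counts, by at most 1.5 times. Another 9 moved further and 3 reversed. Part of the 50 could not differ. Widening to 2 kb left the promoter regions of Gata2, Gata4, Gata5 and Gata6 unchanged. The filter of at least 100 counts removed no Gata region, and a Leiden resolution of 1 kept the same immune-like nuclei. By contrast, a filter of at least 500 counts left 60 of the 77 regions, with 2 higher and 8 lower. Leaving out immune-like nuclei reversed the sign of the promoter ratio of Gata2 (to -0.060), Gata3 (to 0.045) and Gata5 (to 0.019). It moved that of Gata4 to -0.39 and of Gata6 to -0.014, and the count of partner genes that were higher to 6. Setting the median ratio of all shared regions (-0.13) to 0 moved Gata2 to 0.28 and Gata3 to -0.050, and Gata6 to -0.15 (-0.35 to 0.06), which then included 0. At a 1.5-fold ratio 5 of 77 regions were higher and 19 lower. Within 20 kb of a TSS or in the gene body, 2 of 41 were at least 2-fold higher and 4 lower. The shares over all shared regions were not computed at these settings, so these counts are not read as a result about the Gata genes. Over whole regions, 67.5% held a GATA word, beside 76.0% of all shared regions. The partner list alternatives and the split of the hormone-sensing luminal-like class were added after the data were seen. Region counts of under 100 in a class, as in the 57 luminal progenitor-like DOX nuclei, limit what could be detected there.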
